A study of Mus musculus with 6 samples.

Results

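Chemokines are small secreted proteins that guide leukocytes through tissues, and their genes and those of their receptors were described in liver. Members were taken by name from the array annotation: probe sets with a single gene symbol that begins with Ccl, Cxcl, Cx3cl, Xcl, Ccr, Cxcr, Cx3cr, Xcr or Ackr followed by a digit, with the probe set of highest mean kept for a gene. This gave 56 of the 19550 genes with a value, which were 34 ligands, 18 conventional receptors and 4 atypical receptors. The families were left incomplete by the single-symbol rule, since a probe set shared by 7 symbols of the Ccl21 family and one shared by 5 symbols of the Ccl27 family were not used.

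The study measured liver RNA of male C57BL/6NCrSlc mice on 6 Affymetrix arrays, 2 in each of 3 groups. AA-deficient knockouts lacked SMP30/GNL, the gluconolactonase that mice need to make ascorbic acid (AA, vitamin C), and received no AA. AA-supplemented knockouts had the same genotype and received AA with EDTA in their water. Wild-type (WT) mice of the same background, which make AA, had water without the vitamin, and the diet of all 3 groups was AA-deficient. The age of the mice, the design of the knockout allele, the time on the diet, and whether an array held RNA of 1 animal or of a pool were not stated in the labels. The p-values therefore measure the spread between the 2 arrays of each group, which may be technical.

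Chemokines are classed by the spacing of their first cysteines into CC, CXC, CX3C and XC families. Conventional receptors are G protein-coupled, and most drive migration toward the source of the ligand. The atypical receptors bind chemokines without classical G protein signalling and can remove them. In liver, chemokines come from Kupffer cells, sinusoidal endothelium, stellate cells and hepatocytes, and they direct monocytes, neutrophils, T cells and NKT cells in injury and inflammation. In whole liver RNA, fewer cells of a type and less RNA per cell cannot be told apart.

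The members called in the main fit, described below, were Ccl6 and Ccl25, while Ccl9, Cxcl9 and Cxcl10 passed in none of its comparisons. Cxcl10 passed against WT in AA-deficient knockouts under some of the alternatives given below. Promoters are printed for the interferon-induced Cxcl9 and Cxcl10, and for Ccl6 and its neighbour Ccl9. Ccl6 and Ccl9 are a pair of rodent CC chemokines that both signal through Ccr1. Ccl6 spans chr11:83587886-83593087 and Ccl9 chr11:83572917-83578636 (RefSeq, GRCm38.p6, exons and introns together), 9.25 kb apart on the minus strand. Their promoters are printed 5′ to 3′ as RefSeq gives them, each from 250 bases before to 50 bases after the annotated start, because the genes are neighbours and Ccl6 was the member called in both comparisons of the AA-deficient knockouts. The Ccl6 promoter is chr11:83593038-83593337 and the Ccl9 promoter chr11:83578587-83578886, both on the minus strand. Capitals mark the best local alignment of the pair, bases 192 to 265 for Ccl6 and 233 to 299 for Ccl9, in which 59 of 74 columns (79.7%) were identical.
Ccl6: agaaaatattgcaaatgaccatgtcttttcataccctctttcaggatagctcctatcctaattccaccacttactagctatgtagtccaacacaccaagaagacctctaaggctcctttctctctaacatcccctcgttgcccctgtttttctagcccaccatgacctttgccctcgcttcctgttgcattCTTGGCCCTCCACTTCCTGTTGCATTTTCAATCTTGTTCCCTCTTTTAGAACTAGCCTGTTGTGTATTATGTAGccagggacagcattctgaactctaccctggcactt
Ccl9: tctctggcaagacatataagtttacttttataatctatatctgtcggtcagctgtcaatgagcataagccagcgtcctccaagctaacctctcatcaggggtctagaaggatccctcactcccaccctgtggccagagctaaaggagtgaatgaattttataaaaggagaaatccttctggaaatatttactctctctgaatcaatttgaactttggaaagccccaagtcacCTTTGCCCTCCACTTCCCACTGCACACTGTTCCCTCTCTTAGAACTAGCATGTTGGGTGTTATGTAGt

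The promoters of Cxcl10 (chr5:92348840-92349139, minus strand) and Cxcl9 (chr5:92328030-92328329, minus strand) are shown because they were the tested members whose promoters held both motifs searched, which capitals mark. The promoter of Ccl1, which was below the filter for testing, also held both. The motifs were GGGANNTTC, an NF-kB-like string, and GAAANNGAA, an interferon response-like string, searched on both strands.
Cxcl10: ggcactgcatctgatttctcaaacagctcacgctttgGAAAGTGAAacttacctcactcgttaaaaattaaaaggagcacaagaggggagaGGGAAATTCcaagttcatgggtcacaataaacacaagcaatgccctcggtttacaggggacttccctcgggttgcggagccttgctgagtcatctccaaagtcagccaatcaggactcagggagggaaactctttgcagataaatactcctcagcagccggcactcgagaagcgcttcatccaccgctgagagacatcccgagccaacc
Cxcl9: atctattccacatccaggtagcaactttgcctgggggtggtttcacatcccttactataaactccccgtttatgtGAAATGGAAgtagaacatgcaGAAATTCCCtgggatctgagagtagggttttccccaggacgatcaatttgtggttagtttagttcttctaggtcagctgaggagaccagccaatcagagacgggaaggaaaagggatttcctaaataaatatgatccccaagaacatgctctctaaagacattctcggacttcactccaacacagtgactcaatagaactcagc

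RefSeq promoters of this length were found for 42 of the 56 members, 44 promoters in all. The NF-kB-like string was in 8 of the 44 (18.2%), against 3.94% of all 32851 promoters, and those 8 belonged to Ccl1, Ccr3, Cxcl1, Cxcl2, Cxcl3, Cxcl9, Cxcl10 and Cxcr2. The interferon response-like string was also in 8 (18.2%), against 8.56% of all promoters, namely those of Ccl1, Ccl3, Ccl19, Ccr2, Cxcl9, Cxcl10, Cxcl14 and Cxcr1. Neither string was in the windows of Ccl6, Ccl9 or Ccl25. A match here is a description of letters, not of a bound site.

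Values are given in the log units of the deposited table, read here as log10 because their span is 1213-fold on that base and 8.48-fold if the base were 2. Differences are group means subtracted in the same units, with the standard error (SE), and any fold holds only on the log10 reading. Tests were run with limma on all 6 arrays and all 14662 genes whose mean reached 0.185, and a gene was called at a Benjamini-Hochberg adjusted p under 0.05. Of all genes tested, 0.0409% were called higher and 0.164% lower in AA-deficient against AA-supplemented knockouts, 3.08% higher and 1.55% lower in AA-deficient knockouts against WT, and 0% higher and 0.00682% lower in AA-supplemented knockouts against WT. Of the 56 members, 37 were tested (27 ligands, 6 conventional and 4 atypical receptors), with means of 0.19 to 1.20. The other 19 (7 ligands and 12 receptors) had means of -0.084 to 0.16, and low values cannot be separated from background here. At the filter, Cxcl5, Ccl24 and Ccl3 at 0.19 were tested, while Cxcr1 and Cx3cl1 at 0.16 were not.

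Rgn, the gene of SMP30/GNL, had 0.23 and 0.30 in AA-deficient knockouts and 0.34 and 0.14 in AA-supplemented knockouts, against 2.07 and 1.996 in WT, so that it was low on all 4 knockout arrays. Array medians lay between 0.35 and 0.39, and arrays of a group correlated at 0.965 to 0.975. The 6 hepatocyte markers with a value averaged 2.07 to 2.23 per array. The SD of the difference between the 2 arrays of a group was larger for the tested members than for all genes in both knockout groups. It was 0.148 for the members and 0.079 for all genes in AA-deficient knockouts, and 0.180 and 0.104 in AA-supplemented knockouts. In WT it was 0.085 and 0.079. Single wide gaps enter these SDs, the widest being 0.59 for Cxcl9 in AA-deficient and 0.66 for Ccl3 in AA-supplemented knockouts. The median gap over the 56 members was 0.082 and 0.086 in these groups and 0.056 in WT. AA-supplemented array 2, which also had the highest array median, was the highest of the 6 arrays for 15 of the 56 members and the lowest for 2. AA-deficient array 2 was the highest for 14 and the lowest for 15. Among the 37 tested members AA-deficient array 2 was the highest for 12 and AA-supplemented array 2 for 9. No share over all genes was counted for these.

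Ccl6 was the member that changed in both comparisons of the AA-deficient knockouts. Its values were 0.42 and 0.49 in AA-deficient knockouts, 0.88 and 0.90 in AA-supplemented knockouts, and 0.81 and 0.91 in WT. Both AA-deficient arrays lay well below the 4 others, and both AA-supplemented arrays lay within the WT range. Ccl6 is made by macrophages and granulocytes in mice and attracts macrophages. It fell in AA-deficient knockouts by 0.44 (SE 0.049) against AA-supplemented knockouts, 2.75-fold on the log10 reading, with a limma adjusted p of 0.030. Against WT it fell by 0.41 (SE 0.049), or 2.58-fold, with a limma adjusted p of 0.0091. The 2 comparisons share the AA-deficient arrays. The call against AA-supplemented knockouts was lost without any 1 array other than AA-supplemented array 1 (limma adjusted p 0.055 to 0.123), with the difference between -0.47 and -0.41. The call against WT was lost without WT array 1 (0.071) or WT array 2 (0.080), with differences of -0.46 and -0.36.

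Ccl9, known in mice as a product of myeloid cells and a ligand of Ccr1, passed in no comparison. It had 1.23 and 1.34 in AA-deficient knockouts, 1.17 and 1.11 in AA-supplemented knockouts, and 1.21 and 1.14 in WT. The AA-deficient arrays were above all others, one of them only slightly above the highest WT array. The difference from AA-supplemented knockouts was 0.15 (SE 0.054, limma adjusted p 0.415) and that from WT 0.11 (SE 0.054, limma adjusted p 0.324). Ccr1, their shared receptor, was below the filter and had no test: it had -0.13 and 0.044 in AA-deficient knockouts, 0.19 and 0.098 in AA-supplemented knockouts, and 0.19 and 0.23 in WT. The AA-deficient arrays were again the lowest, at values where background cannot be told apart.

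**Figure D1:**
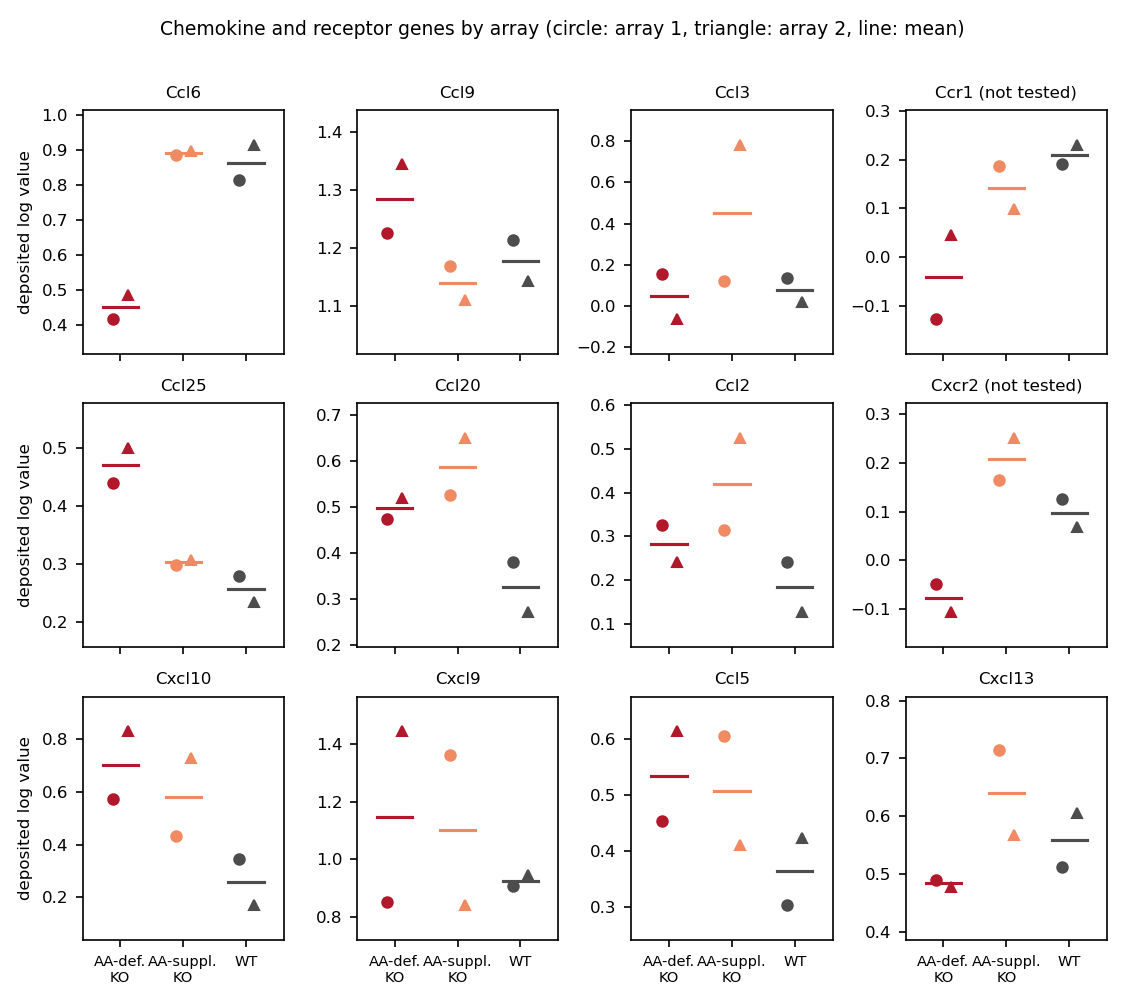
Deposited log value of 12 chemokine and receptor genes on each array (y axis, log units, scaled per gene), by group from AA-deficient knockouts to AA-supplemented knockouts to WT. Circles are array 1, triangles array 2 and lines the mean of 2. Ccl6 sits at 0.42 and 0.49 in AA-deficient knockouts with all other arrays at 0.81 or above, while for Cxcl9 and Ccl3 the arrays of a knockout group lie far apart.

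The remaining macrophage inflammatory protein genes, Ccl3 and Ccl4, and Ccl5 lie 54.8 to 57.4 kb from Ccl6 on chromosome 11 and did not pass in any comparison. Ccl3, a ligand of Ccr1, had 0.16 and -0.062 in AA-deficient knockouts, 0.12 and 0.78 in AA-supplemented knockouts, and 0.14 and 0.021 in WT. One array, AA-supplemented array 2, was high. The difference between AA-deficient and AA-supplemented knockouts was -0.40 (SE 0.18, limma adjusted p 0.531), which was -0.072 without that array. Ccl3 reached the filter through that array, since the 5 others lay at -0.062 to 0.16, below the filter of 0.185. Without the other AA-supplemented array the high one stood alone for its group, with a difference of -0.73 (limma adjusted p 0.044), and nothing is read from that value. Between AA-supplemented knockouts and WT it was 0.37 (SE 0.18, limma adjusted p 0.529), and 0.040 without AA-supplemented array 2. The RefSeq spans of Ccl3 and Ccl4 overlap.

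Ccl4, which attracts monocytes and T cells, had 0.34 and 0.40 in AA-deficient knockouts, 0.39 and 0.47 in AA-supplemented knockouts, and 0.26 and 0.32 in WT. Each knockout array was above each WT array, with a difference of 0.14 (SE 0.047, limma adjusted p 0.376) for AA-supplemented knockouts against WT. Ccl5, which attracts T cells and monocytes, had 0.45 and 0.61 in AA-deficient knockouts, 0.60 and 0.41 in AA-supplemented knockouts, and 0.30 and 0.42 in WT. The AA-deficient arrays lay above the WT arrays, while the AA-supplemented arrays overlapped both groups. Its difference between AA-deficient knockouts and WT was 0.17 (SE 0.080, limma adjusted p 0.287).

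Ccl25, the ligand of Ccr9 that draws T cells to gut and thymus, was the member that rose against WT. It had 0.44 and 0.50 in AA-deficient knockouts, 0.30 and 0.31 in AA-supplemented knockouts, and 0.28 and 0.23 in WT, and the AA-deficient arrays stood above the other 4. Against WT it rose by 0.21 (SE 0.043, limma adjusted p 0.039), 1.64-fold on the log10 reading, and against AA-supplemented knockouts the difference was 0.17 (SE 0.043, limma adjusted p 0.222). A second Ccl25 probe set did not show this, with 0.25 and 0.37 in AA-deficient knockouts, 0.32 and 0.21 in AA-supplemented knockouts, and 0.29 and 0.19 in WT. With the mean of both probe sets the difference from WT was 0.14 (limma adjusted p 0.156), and the call was also lost without either AA-deficient array (0.107 and 0.243) or either WT array (0.186 and 0.209). Its receptor Ccr9 had 0.12 and 0.28 in AA-deficient knockouts, 0.25 and 0.16 in AA-supplemented knockouts, and 0.23 and 0.20 in WT, so its groups overlapped.

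Ccl20, the ligand of Ccr6 on T helper 17 and B cells, was higher on each knockout array than on each WT array but passed in no comparison. It had 0.47 and 0.52 in AA-deficient knockouts, 0.53 and 0.65 in AA-supplemented knockouts, and 0.38 and 0.27 in WT. Against WT the differences were 0.17 (SE 0.058, limma adjusted p 0.141) in AA-deficient knockouts and 0.26 (SE 0.058, limma adjusted p 0.194) in AA-supplemented knockouts. These comparisons share the WT arrays. Ccl17, a ligand of Ccr4, had 0.099 and 0.34 in AA-deficient knockouts, 0.30 and 0.29 in AA-supplemented knockouts, and 0.20 and 0.076 in WT. One AA-deficient array lay within the WT range and the other above both AA-supplemented arrays, and the difference of AA-supplemented knockouts from WT was 0.16 (SE 0.078, limma adjusted p 0.540). Ccl28, a mucosal ligand of Ccr10, had 0.27 and 0.23 in AA-deficient knockouts, 0.13 and 0.22 in AA-supplemented knockouts, and 0.17 and 0.15 in WT. Its AA-deficient arrays were the highest, by 0.072 (SE 0.045, limma adjusted p 0.703) against AA-supplemented knockouts. Xcl1, made by T and NK cells, had 0.59 and 0.44 in AA-deficient knockouts, 0.49 and 0.55 in AA-supplemented knockouts, and 0.60 and 0.46 in WT, and its groups overlapped.

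**Figure D2:**
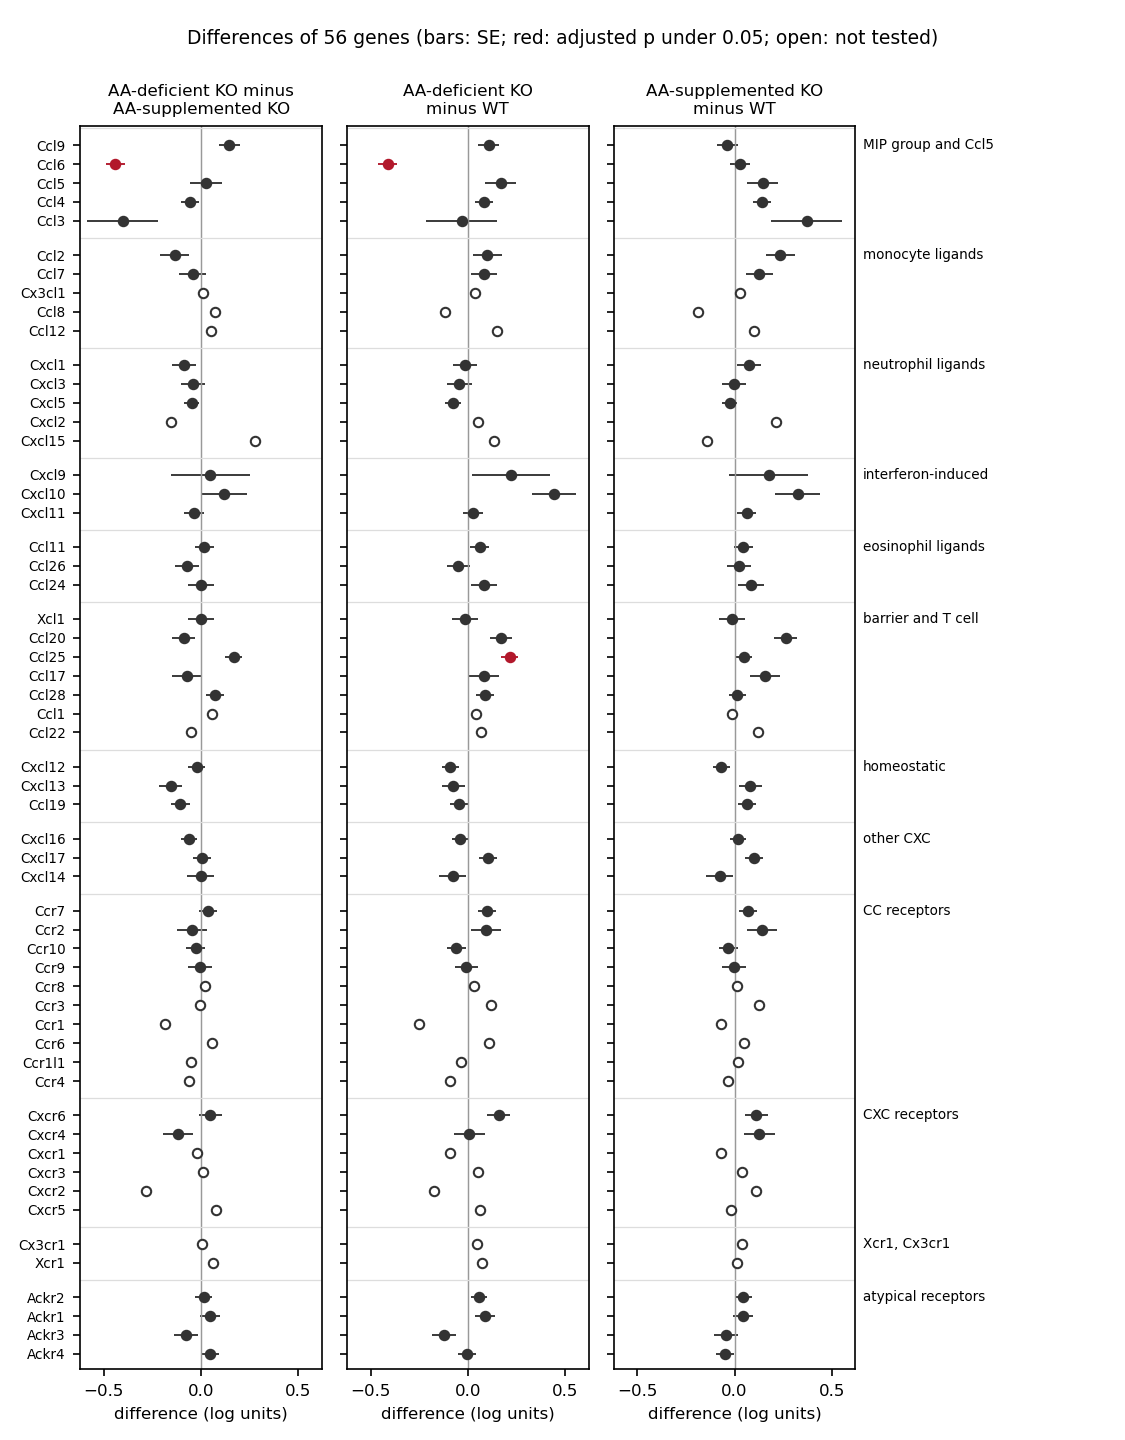
Difference of group means in log units (x axis) for the 56 genes grouped by role (y axis), in the 3 comparisons. Bars are the limma SE, red points passed an adjusted p under 0.05 and open points were not tested. Ccl6 lies at -0.44 and -0.41 in both AA-deficient comparisons, Ccl25 at 0.21 against WT, and none of the points for AA-supplemented knockouts against WT is red.

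Of the interferon-induced ligands of Cxcr3, which draw activated T and NK cells, Cxcl9 and Cxcl10 lay far apart on the arrays of each knockout group, and Cxcl9 had the widest gap between the AA-deficient arrays of all 56 members (0.591). Cxcl10 had 0.57 and 0.83 in AA-deficient knockouts, 0.43 and 0.73 in AA-supplemented knockouts, and 0.34 and 0.17 in WT. Each knockout array was above each WT array and the knockout groups overlapped. The differences from WT were 0.44 (SE 0.11, limma adjusted p 0.071) in AA-deficient knockouts and 0.32 (SE 0.11, limma adjusted p 0.392) in AA-supplemented knockouts. The first of these is 2.77-fold on the log10 reading, with a 95% interval of 0.18 to 0.71 log units. It passed in the fit of those 4 arrays alone (limma adjusted p 0.039) and over the alternatives run lay between 0.031 and 0.331.

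Cxcl9 had 0.85 and 1.44 in AA-deficient knockouts, 1.36 and 0.84 in AA-supplemented knockouts, and 0.91 and 0.94 in WT. AA-deficient array 2 and AA-supplemented array 1 were high, and the other arrays lay together irrespective of group. Those same arrays were the high ones of their groups for Ccl5 and for the Kupffer cell and macrophage list, which averaged 0.94 and 1.03 in AA-deficient knockouts, 1.01 and 0.90 in AA-supplemented knockouts, and 0.92 and 0.94 in WT. They were also the high ones for Cd74, the MHC class II invariant chain, at 1.37 and 1.62 in AA-deficient knockouts, 1.49 and 1.24 in AA-supplemented knockouts, and 1.10 and 1.15 in WT. The part of macrophage RNA in the Cxcl9 and Ccl5 values was not tested. Cxcl11, the other ligand of Cxcr3, stayed between 0.13 and 0.25 on all 6 arrays.

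Among the ligands that draw monocytes and neutrophils, 0 of 5 tested members passed in any comparison by limma, and 1 had an unadjusted p under 0.05. That member was Ccl2, the main ligand of Ccr2 and a monocyte attractant, in AA-supplemented knockouts against WT, where 10.6% of all genes had one. Ccl2 had 0.33 and 0.24 in AA-deficient knockouts, 0.31 and 0.52 in AA-supplemented knockouts, and 0.24 and 0.13 in WT. AA-supplemented array 2 was the highest and WT array 2 the lowest. The difference of AA-supplemented knockouts was 0.24 (SE 0.075, limma adjusted p 0.351) from WT, and 0.13 without AA-supplemented array 2, while that between AA-deficient and AA-supplemented knockouts was -0.14 (SE 0.075, limma adjusted p 0.637).

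Cxcl1, a ligand of Cxcr2 that draws neutrophils, had 0.61 and 0.62 in AA-deficient knockouts, 0.78 and 0.62 in AA-supplemented knockouts, and 0.58 and 0.68 in WT, and its groups overlapped. The same AA-supplemented array 2 was the highest for Ccl7 (0.42), Cxcl2 (0.38) and Cxcr4 (0.41), which were chosen after their values were seen. On the 5 other arrays Ccl7 lay at 0.17 to 0.28, Cxcl2 at -0.042 to 0.10 and Cxcr4 at 0.12 to 0.20. That array also had the highest mean of the neutrophil list (0.24) and of the hepatocyte list (2.23). Whether these move the chemokine values was not tested.

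**Figure D3:**
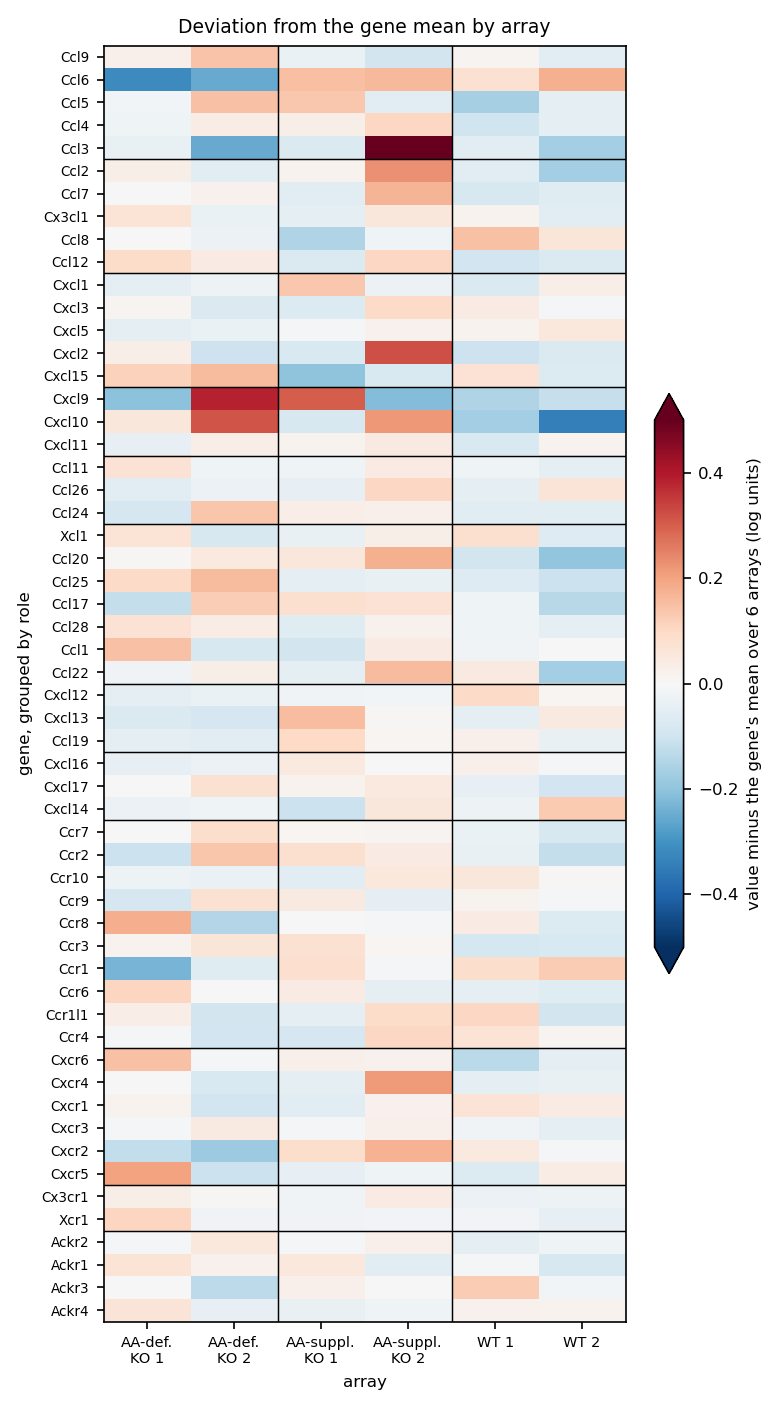
Value minus the gene's own mean over 6 arrays (colour, log units, clipped at 0.5 either way) for the 56 genes (rows, grouped by role) on each array (columns, AA-deficient knockouts, AA-supplemented knockouts, WT). Ccl6 is low on both AA-deficient arrays, while Ccl3, Cxcl2 and Ccl2 are high on AA-supplemented array 2 alone and Cxcl9 on AA-deficient array 2 and AA-supplemented array 1.

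The homeostatic ligands, which place lymphocytes in tissue under steady conditions, were each lower on both AA-deficient arrays than on both AA-supplemented arrays. For Ccl19 this held only with the probe set used. Of all genes, 37.3% had no overlap in that comparison, counted in either direction. By limma 0 of 3 passed, and 1 had an unadjusted p under 0.05 there, against 9.92% of all genes. Cxcl13, the B cell attractant of follicles, had 0.49 and 0.48 in AA-deficient knockouts, 0.71 and 0.57 in AA-supplemented knockouts, and 0.51 and 0.61 in WT. Its difference between AA-deficient and AA-supplemented knockouts was -0.16 (SE 0.058, limma adjusted p 0.417). Cxcl12, the ligand of Cxcr4 made by stromal cells, had 1.10 and 1.11 in AA-deficient knockouts, 1.13 and 1.13 in AA-supplemented knockouts, and 1.24 and 1.15 in WT. The knockout arrays of both groups lay below both WT arrays, by small amounts. Ccl19, the ligand of Ccr7 in lymphoid tissue, had 0.39 and 0.38 in AA-deficient knockouts, 0.54 and 0.45 in AA-supplemented knockouts, and 0.46 and 0.40 in WT. The difference between AA-deficient and AA-supplemented knockouts was -0.11 (SE 0.047, limma adjusted p 0.521). A second Ccl19 probe set went the other way, at 0.39 and 0.31 in AA-deficient knockouts, 0.14 and 0.24 in AA-supplemented knockouts, and 0.42 and 0.24 in WT, so that the mean of both probe sets gave 0.027.

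The remaining CXC ligands and the eosinophil-attracting ligands, 3 genes each and all tested, had 0 calls by limma and 0 unadjusted p under 0.05 in the 3 comparisons. Cxcl17, a mucosal chemokine, had 0.47 and 0.54 in AA-deficient knockouts, 0.49 and 0.52 in AA-supplemented knockouts, and 0.43 and 0.37 in WT. Both knockout groups lay above WT, by 0.10 each (SE 0.046, limma adjusted p 0.253 for AA-deficient and 0.492 for AA-supplemented knockouts). Cxcl16, the membrane-bound ligand of Cxcr6, had 0.45 and 0.46 in AA-deficient knockouts, 0.54 and 0.49 in AA-supplemented knockouts, and 0.51 and 0.48 in WT, with the AA-deficient arrays lowest. Ccl11 (eotaxin), which draws eosinophils through Ccr3, had 0.34 and 0.25 in AA-deficient knockouts, 0.25 and 0.31 in AA-supplemented knockouts, and 0.25 and 0.22 in WT, and its groups overlapped.

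Of the 18 conventional receptors, 12 were below the filter, and 0 of the 6 tested passed in any comparison by limma, with 1 unadjusted p under 0.05. That 1 was Cxcr6, the receptor of Cxcl16 carried by NKT and T cells in mouse liver, in AA-deficient knockouts against WT, where 20.4% of all genes had one. It had 0.39 and 0.24 in AA-deficient knockouts, 0.27 and 0.27 in AA-supplemented knockouts, and 0.11 and 0.20 in WT. Each knockout array lay above each WT array, with differences of 0.16 (SE 0.059, limma adjusted p 0.183) in AA-deficient knockouts and 0.11 (SE 0.059, limma adjusted p 0.559) in AA-supplemented knockouts. Ccr7, which guides dendritic cells and naive T cells, had 0.37 and 0.46 in AA-deficient knockouts, 0.38 and 0.38 in AA-supplemented knockouts, and 0.34 and 0.29 in WT. Its knockout arrays were also above the WT arrays, by 0.10 (SE 0.046, limma adjusted p 0.278) in AA-deficient knockouts.

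Cxcr2, the neutrophil receptor of Cxcl1 and Cxcl2, was below the filter and was singled out after its values were seen. It had -0.048 and -0.11 in AA-deficient knockouts, 0.17 and 0.25 in AA-supplemented knockouts, and 0.13 and 0.069 in WT. Both AA-deficient arrays were the lowest, at values where background cannot be told apart. Both AA-deficient arrays were also the lowest of the 6 for Ccl6 and Ccr1, and for Ccl19, Cxcl5, Cxcl12, Cxcl13 and Cxcl16. The share of all genes with that order was not counted, so nothing is read from the number of these members. Between the knockout groups alone, 37.3% of all genes tested had no overlap in either direction, which is a different measure. The 10 neutrophil markers had a summed level, on the log10 reading, of 13.9 to 14.4 in AA-deficient knockouts, 15.8 to 18.4 in AA-supplemented knockouts and 16.5 to 16.7 in WT. Of these, 7 of 10 were lower in AA-deficient knockouts than with AA, as were 9976 of all 19550 genes. Against WT 9 of 10 were lower, as were 10244 of all genes. The markers below the filter had values where background cannot be told apart. Of the 5 tested, 0 were called by limma in any comparison. Retnlg, a secreted protein of neutrophils, had an unadjusted limma p of 0.010 between AA-deficient and AA-supplemented knockouts. In that comparison 9.92% of all genes had one under 0.05. Retnlg had 0.18 and 0.21 in AA-deficient knockouts, 0.34 and 0.31 in AA-supplemented knockouts, and 0.20 and 0.20 in WT. The AA-supplemented arrays were thus the high ones, and the AA-deficient arrays lay near WT. The defining markers Mpo and Ly6g were below the filter, at -0.079 to 0.097 and 0.032 to 0.29 over the 6 arrays. The share of granulocyte or of macrophage RNA in the Ccl6, Ccr1 and Cxcr2 values was not tested. The 11 Kupffer cell and macrophage markers had a summed level of 118 to 146 in AA-deficient knockouts, 109 to 136 in AA-supplemented knockouts and 115 to 122 in WT. The groups thus overlapped. Of the differences of AA-deficient knockouts, 11 of 11 from WT were positive, as were 9306 of all 19550 genes. From AA-supplemented knockouts 8 of 11 were positive, as were 9574 of all genes. In that comparison Marco and Cd68 were lower without overlap and Vsig4 higher without overlap. In both comparisons 0 were called by limma and 0 had an unadjusted p under 0.05.

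**Figure D4:**
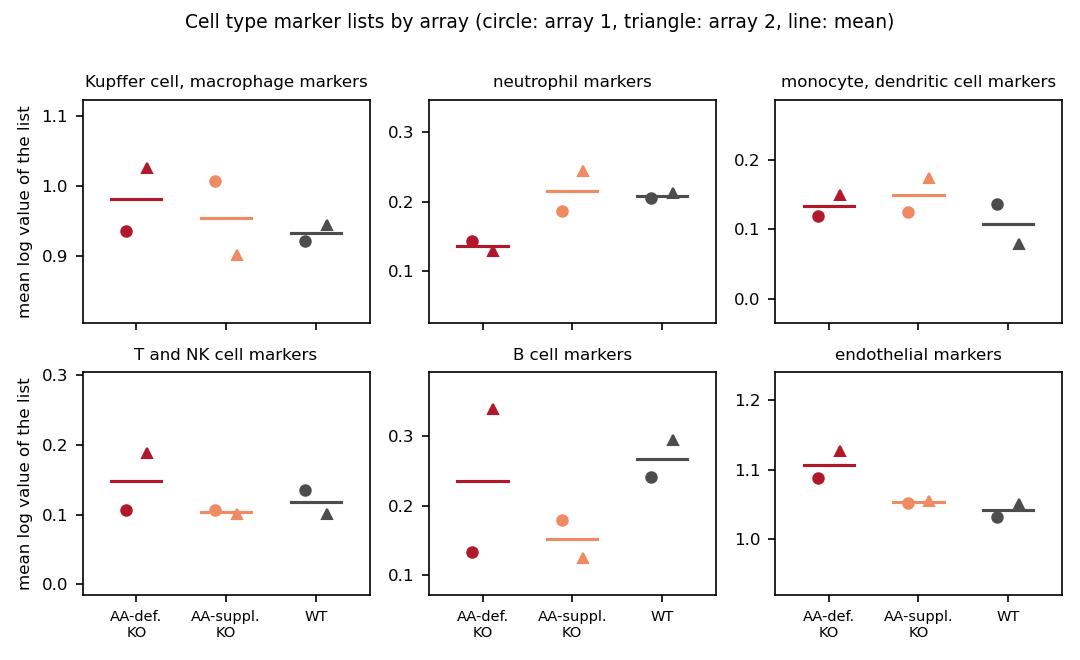
Mean deposited log value of 6 lists of cell type markers on each array (y axis, log units, scaled per list), by group from AA-deficient knockouts to AA-supplemented knockouts to WT. Circles are array 1, triangles array 2 and lines the mean of 2. The neutrophil list lies at 0.13 and 0.14 in AA-deficient knockouts and at 0.19 or above on the other 4 arrays, while the Kupffer cell and macrophage list overlaps between groups.

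Cx3cr1, the fractalkine receptor of monocytes, was below the filter, with 0.17 and 0.15 in AA-deficient knockouts, 0.13 and 0.19 in AA-supplemented knockouts, and 0.12 and 0.12 in WT. The 4 atypical receptors were tested and 0 passed in any comparison by limma, with 0 unadjusted p under 0.05. Ackr2, a scavenger of inflammatory CC chemokines, had 0.30 and 0.36 in AA-deficient knockouts, 0.30 and 0.33 in AA-supplemented knockouts, and 0.26 and 0.28 in WT. Ackr4, which scavenges Ccl19 and Ccl25, had 0.28 and 0.18 in AA-deficient knockouts, 0.18 and 0.19 in AA-supplemented knockouts, and 0.24 and 0.23 in WT. Its knockout groups overlapped, while for Ackr2 each knockout array lay above each WT array.

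Counted together, between AA-deficient and AA-supplemented knockouts 1 of 37 tested members was lower (2.7%) and 0 were higher, against 0.164% lower and 0.0409% higher of all genes tested. At an unadjusted p under 0.05 there were 4 members (10.8%: Ccl6, Ccl9, Ccl25 and Cxcl13), against 9.92% of all genes. Groups did not overlap for 10 members (27.0%), against 37.3% of all genes. The share with an unadjusted p under 0.05 was slightly above that of all genes, and the share without overlap was below it.

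Between AA-deficient knockouts and WT, 1 member was higher and 1 lower (2.7% each), against 3.08% and 1.55% of all genes. An unadjusted p under 0.05 was found for 5 members (13.5%), against 20.4%, and groups did not overlap for 20 (54.1%), against 54.5%. Between AA-supplemented knockouts and WT, 0 members were called by limma, against 0% higher and 0.00682% lower of all genes. An unadjusted p under 0.05 was found for 4 (10.8%: Ccl2, Ccl4, Ccl20 and Cxcl10, all higher), against 10.6% in either direction. Of the 14662 genes tested, 994 were higher at that p. Groups did not overlap for 16 members (43.2%), against 38.6%. By these counts, which apart from the calls take both directions together, the members were near the genes at large in both comparisons with WT. The signs of their differences are given next.

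The median difference over the 56 members was -0.0051 between AA-deficient and AA-supplemented knockouts (24 positive, 32 negative), against -0.0017 over all genes with a value. From WT it was 0.048 in AA-deficient knockouts (34 positive, 22 negative) and 0.042 in AA-supplemented knockouts (39 positive, 17 negative), against -0.0050 and -0.0018 over all genes. Of all 19550 genes, 9574 were positive between the knockout groups, and against WT 9306 in AA-deficient and 9595 in AA-supplemented knockouts. The positive medians against WT share the WT arrays. The median against WT was 0.011 in AA-deficient knockouts without AA-deficient array 1, and 0.018 in AA-supplemented knockouts without AA-supplemented array 2. Without AA-supplemented array 2 the median between the knockout groups was 0.018 as well.

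By place in the genome, 12 ligands lie on chromosome 11, 11 on chromosome 5 and 13 receptors on chromosome 9. The 14 members on chromosome 11 had a median difference of 0.072 between AA-deficient knockouts and WT, the 13 on chromosome 9 one of 0.045, the 11 on chromosome 5 one of 0.026 and the 7 on chromosome 1 one of -0.015. Within chromosome 11, Ccl6 was the 1 member called in that comparison, and Ccl9, Ccl5, Ccl3 and Ccl4, the members nearest to it, were not called.

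Other genes of the pathway were taken from 4 lists, 45 genes of which 32 were tested, and 0 passed in any comparison by limma. At an unadjusted p under 0.05 there were 6 of 32 against WT in AA-deficient knockouts, all higher, near the 20.4% of all genes. Their adjusted p was 0.075 to 0.196. They were 5 of 15 tested genes of receptor signalling, namely the receptor kinase Grk5 (0.17, SE 0.047), the phospholipase Plcb3 (0.15, SE 0.053), the Rac activators Dock2 (0.17, SE 0.064) and Elmo1 (0.12, SE 0.040) and the GTPase Rac2 (0.14, SE 0.055), and, outside the naming rule, Cd74, a receptor of Mif (0.37, SE 0.096). These genes were named after their values were seen, and nothing is read from their number beside the 20.4% of all genes. Against WT in AA-supplemented knockouts 3 were higher (Grk5, Cd74 and Tgfb1), and between AA-deficient and AA-supplemented knockouts the protease Mmp2 was higher and the cytokine Tgfb1 lower. The median over the 45 genes was 0.017 between AA-deficient and AA-supplemented knockouts, and against WT 0.039 in AA-deficient and 0.023 in AA-supplemented knockouts. Among the 12 genes of the cytokine list, 5 of them below the filter, such as Tnf and Ifng, 0 had an unadjusted p under 0.05 between AA-deficient knockouts and WT.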

How the data were processed

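Liver RNA was measured on 6 arrays, 2 in each of 3 groups named by the sample titles. The authors deposited 1 value table, whose values are taken here as log10. The log base, the software and the normalisation behind them are unknown here, and 0 columns belonged to no sample. Per the labels' protocols, ISOGEN extracts were labelled by the GeneChip WT Terminal Labeling procedure.

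Of 34760 probe sets, 3995 held no value. Probe sets were named from the platform annotation, and 19550 genes remained, each represented by its single-symbol probe set of highest mean. The 14662 genes whose mean reached the 25th percentile entered the test, made in limma 3.58.1 under R 4.3.3 with all 6 arrays in 1 fit, eBayes without trend and two-sided p-values adjusted by Benjamini-Hochberg over all genes tested. The fit had 3 residual and 4.89 prior degrees of freedom, and the number of arrays limits its precision. It was tested on simulated data with changes larger than that of any member, so that test gives no power for the members' differences. The planned test allowed for a log2 or a linear table, and the log values were used as deposited. All 56 members matched RefSeq genes (GRCm38.p6), and no symbol needed an update.

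The members and lists were chosen with earlier results of these data known. Members named were those called, the 8 of smallest p in each comparison, the member of highest mean in each role, and the partners of called members. Differences are printed for those of smallest p. Alternatives changed the scaling, the filter, the variance trend, the choice of probe set, the arrays fitted and a replicate block, and left out each array.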

Additional observations from a re-analysis of the deposited data

How the results depend on the processing

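Between AA-deficient and AA-supplemented knockouts 30 genes were called, 6 higher and 24 lower. The count was 12 with quantile normalisation (1 higher, 11 lower), 57 with arrays centred on their median, 0 with no filter, 51 with a 50th percentile filter, 154 with an eBayes trend, 0 with only the 4 arrays compared, and 0 to 46 without 1 array. Members called, 1 (Ccl6), became 0 with no filter, with the 4 arrays alone or with the replicate block, and 0 to 2 without 1 array (2, Ccl3 and Ccl6, without AA-supplemented array 1). The adjusted p of Ccl6 was 0.096, 0.094 and 0.064 in those 3 settings. Between AA-deficient knockouts and WT 679 genes were called, against 173 with no filter, 1057 with a 50th percentile filter, 1271 with a trend, 1031 with the 4 arrays alone, and 1 to 1031 without 1 array. Members called, 2, became 1 (Ccl6) with no filter, with the mean of a gene's probe sets or with the replicate block, and 0 to 3 without 1 array. Ccl25 was not called when arrays were centred (0.052), with no filter (0.085) or with the block (0.092). Cxcl10 was called when arrays were centred (0.041), with the 50th percentile filter (0.048) and with a trend (0.031). Between AA-supplemented knockouts and WT 1 gene was called (lower), against 8 with centred arrays (6 higher, 2 lower), 94 with a trend and 1 to 7 without 1 array, and 0 members were called in every alternative run. The fit with the replicate block called 4, 163 and 3 genes in the 3 comparisons. The numbers were not taken to pair the arrays, since deviations of same-numbered arrays correlated at -0.37 between knockout groups, 0.36 between AA-deficient knockouts and WT, and -0.28 between AA-supplemented knockouts and WT. With the AA-supplemented numbers crossed, an alternative chosen after seeing the data, 75 genes were called between knockout groups and 1561 between AA-deficient knockouts and WT, and Ccl5 passed against WT (0.031). Ccl19 reversed to 0.027 with the mean of its probe sets. Of 348 values of named members under alternatives, 321 kept their direction and side of the threshold, 18 lost the call, 8 gained it and 1 reversed. The cause of these shifts was not tested.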

Other observations

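The other lists of cell type markers gave 1 call, in AA-deficient knockouts against WT, where 3.08% of all genes were called higher. Stab2, a scavenger receptor of liver sinusoidal endothelium, had 1.09 and 1.11 in AA-deficient knockouts, 1.01 and 0.995 in AA-supplemented knockouts, and 0.81 and 0.90 in WT. It rose by 0.24 (SE 0.045, limma adjusted p 0.032) in AA-deficient knockouts against WT, and the other 6 endothelial markers were not called. Of those, Pecam1 (-0.068) and Clec4g (-0.073) had negative differences and the other 4 positive ones. The endothelial list averaged 1.09 and 1.13 in AA-deficient knockouts, 1.05 and 1.05 in AA-supplemented knockouts, and 1.03 and 1.05 in WT. The T and NK cell list averaged 0.11 and 0.19 in AA-deficient knockouts, 0.11 and 0.10 in AA-supplemented knockouts, and 0.14 and 0.10 in WT. The B cell list averaged 0.13 and 0.34 in AA-deficient knockouts, 0.18 and 0.13 in AA-supplemented knockouts, and 0.24 and 0.29 in WT. AA-deficient array 2 was the highest array for both lymphocyte lists. It was also the highest for 14 of the 56 members, of which Cxcl9, Cxcl10 and Ccl5 were picked after their values were seen. In AA-supplemented knockouts both lists, Cxcl9 and Ccl5 were higher on array 1, and Cxcl10 on array 2. Within the B cell list, Cd79a had -0.094 and 0.47 in AA-deficient knockouts. The part of lymphocyte RNA in these chemokine values was not tested.

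Of the 19 members below the filter, Ccl8, an attractant of monocytes, had 0.099 and 0.069 in AA-deficient knockouts, -0.051 and 0.079 in AA-supplemented knockouts, and 0.25 and 0.16 in WT. Ccl12, a mouse ligand of Ccr2, had 0.18 and 0.13 in AA-deficient knockouts, 0.015 and 0.19 in AA-supplemented knockouts, and -0.0088 and 0.016 in WT. Both were chosen after their values were seen and neither was tested.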
